A study of Mus musculus with 43 samples.

Results

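Arginine 3 of histone H4 (H4R3) can carry 1 methyl group (H4R3me1) or 2 methyl groups on the same nitrogen (asymmetric dimethylation, H4R3me2a). Both were mapped in WT testis cells at P14, and the peak lists of the 2 marks were set against each other. The lists compared were all those of WT mice at P14 for either mark, 2 of H4R3me1 and 3 of H4R3me2a, which makes 5 of the 43 samples of the series and 185852 of the 935217 peaks in its 33 CUT&Tag lists. CUT&Tag directs a transposase to a chromatin mark through an antibody, and each list held the places where the recovered fragments were enriched over their surroundings. The mice were WT animals of the C57BL/6J strain, 14 days after birth (P14), and single cells were prepared from their testes after the tubules had been digested to remove interstitial cells and the suspension strained against Sertoli cells. The titles of these samples name spermatogonia and their cell type field names spermatocytes, and no sort separated them, so the lists describe a mixture of germ cells with any somatic cells left. Whether a mark with few peaks was low in every cell or present in few cells cannot be told apart in such bulk samples. The labels do not say that replicates came from separate animals, so the spread between lists may be technical.

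Protein arginine methyltransferases (PRMTs) transfer methyl groups to arginine. Type I enzymes, with PRMT1 as the main one at H4R3, carry the reaction through a monomethyl to an asymmetric dimethyl product. PRMT5 ends at the symmetric dimethyl form (H4R3me2s) and PRMT7 at the monomethyl form. H4R3me1 is therefore both an intermediate and an end product. H4R3me2a is known as a mark of active promoters that Tudor domain proteins such as TDRD3 can bind, and H3K4me3 and H3K27ac are the common markers of active promoters in any cell.

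In short, the lists of the 2 marks overlapped each other nearly as much as lists of the same mark did. Both marks were gathered at promoters, and no region held by all 5 lists differed in relative strength by the test used. That test leaves out every region that a list lacked. The lists stood apart by mark on the X chromosome, where H4R3me1 had a smaller share of its peaks than H4R3me2a, though not among the peaks of q at most 0.01. A comparison of 2 against 3 lists by an exact permutation test has 10 assignments, so that the smallest two-sided p is 0.1 and no such comparison here can reach 0.05.

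The DNA under a shared peak, under peaks separate to either mark, and before the start sites of 3 genes shows what these places look like. Windows of 300 bp around the peak summit are on the + strand and promoters of 250 bases (RefSeq, GRCm38.p6) on the strand of the gene. All are written 5′ to 3′, with coordinates of GRCm38 (mm10), and the capitals mark the CpG dinucleotides.
The region of all 5 lists at chr4:118547764-118548063, outside genes and at -3870 bp from the start site of Tmem125, had a fold enrichment of 9.57 and 9.31 for H4R3me1 and of 9.71, 9.78 and 9.84 for H4R3me2a.
shared region near Tmem125: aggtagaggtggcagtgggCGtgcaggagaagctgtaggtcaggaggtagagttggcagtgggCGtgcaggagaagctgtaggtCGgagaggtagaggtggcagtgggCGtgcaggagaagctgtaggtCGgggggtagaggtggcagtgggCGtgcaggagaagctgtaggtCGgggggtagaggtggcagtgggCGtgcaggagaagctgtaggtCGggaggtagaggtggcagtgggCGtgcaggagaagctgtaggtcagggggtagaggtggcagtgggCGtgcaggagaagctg
The region separate to H4R3me1 at chr4:137673639-137673938, in an annotated intron at -6964 bp from the nearest start site, one of Rap1gap, reached 3.86 and 3.94 in the H4R3me1 lists.
H4R3me1 region near Rap1gap: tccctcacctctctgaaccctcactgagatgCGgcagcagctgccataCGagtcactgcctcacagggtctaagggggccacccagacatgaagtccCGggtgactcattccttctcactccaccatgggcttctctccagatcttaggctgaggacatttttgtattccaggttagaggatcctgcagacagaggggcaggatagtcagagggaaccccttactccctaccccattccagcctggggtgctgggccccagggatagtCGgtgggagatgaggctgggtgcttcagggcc
A second region separate to H4R3me1 lay at chr7:144581685-144581984 in an annotated intron, 628 bp past the start site of Fadd, with a fold enrichment of 4.55 and 3.72.
H4R3me1 region at Fadd: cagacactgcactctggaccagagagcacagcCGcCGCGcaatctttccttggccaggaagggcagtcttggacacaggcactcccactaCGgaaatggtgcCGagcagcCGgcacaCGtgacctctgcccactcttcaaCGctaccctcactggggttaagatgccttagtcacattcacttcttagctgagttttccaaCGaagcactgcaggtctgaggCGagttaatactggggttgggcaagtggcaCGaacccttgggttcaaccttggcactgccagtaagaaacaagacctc
The region separate to H4R3me2a at chr3:31095391-31095690, in an annotated intron 416 bp past the start site of Skil, reached 4.60, 4.35 and 5.15.
H4R3me2a region at Skil: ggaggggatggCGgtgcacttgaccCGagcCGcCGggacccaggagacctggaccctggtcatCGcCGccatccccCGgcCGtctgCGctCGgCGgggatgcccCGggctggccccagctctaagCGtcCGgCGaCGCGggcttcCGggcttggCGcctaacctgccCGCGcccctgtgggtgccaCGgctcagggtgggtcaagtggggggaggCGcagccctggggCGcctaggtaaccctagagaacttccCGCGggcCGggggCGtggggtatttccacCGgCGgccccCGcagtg
Before the start site of Prmt9 (chr8:77549147-77549396, + strand), a gene with a peak within 3000 bp of its start sites in all 5 lists, the best summits lay 1081 and 1061 bp past the nearest GENCODE start site for H4R3me1 and 94, 106 and 96 bp past it for H4R3me2a. For this gene and the next 2 the GENCODE start site is further downstream than the RefSeq start site that the printed bases precede.
Prmt9 promoter: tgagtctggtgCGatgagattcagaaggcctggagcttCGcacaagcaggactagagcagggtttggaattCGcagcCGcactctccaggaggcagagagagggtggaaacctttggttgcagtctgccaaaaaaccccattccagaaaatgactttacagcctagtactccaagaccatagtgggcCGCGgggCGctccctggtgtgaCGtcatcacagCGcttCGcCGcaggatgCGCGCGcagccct
Before the start site of Id4 (chr13:48260866-48261115, + strand), marked in 2 lists of each mark, the summits lay 1080 and 551 bp past the nearest GENCODE start site for H4R3me1 and 346 and 111 bp past it for H4R3me2a.
Id4 promoter: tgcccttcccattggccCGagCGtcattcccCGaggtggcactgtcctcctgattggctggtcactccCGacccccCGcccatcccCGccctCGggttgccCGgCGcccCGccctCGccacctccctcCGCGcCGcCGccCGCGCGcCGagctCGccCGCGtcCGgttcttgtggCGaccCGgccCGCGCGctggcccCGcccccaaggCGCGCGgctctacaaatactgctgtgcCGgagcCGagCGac
Before the start site of Rnf111 (chr9:70503776-70504025, - strand), marked in the 3 lists of H4R3me2a alone, the summits lay 44, 88 and 47 bp past the nearest GENCODE start site.
Rnf111 promoter: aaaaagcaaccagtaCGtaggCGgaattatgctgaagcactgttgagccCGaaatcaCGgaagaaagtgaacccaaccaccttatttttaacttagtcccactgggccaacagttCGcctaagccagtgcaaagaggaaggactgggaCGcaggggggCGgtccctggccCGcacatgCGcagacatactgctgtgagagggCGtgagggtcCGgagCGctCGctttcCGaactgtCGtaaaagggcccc

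The Skil window had 31 CpG dinucleotides and a GC content of 74.3%, the Fadd window 11 and 55.7%, and the Rap1gap window 4 and 58.3%. The shared window near Tmem125 had 11 CpG dinucleotides and a GC content of 63.3%, and it was a tandem repeat: set against itself with a shift of 44 bp, 83.2% of its bases matched. The Id4 promoter had 35 CpG dinucleotides, 5 GC boxes (GGGCGG on either strand) and 2 CCAAT boxes (either strand). The Prmt9 promoter had 14 CpG dinucleotides and 1 palindromic cyclic AMP response element (CRE, TGACGTCA), a motif found in 1.55% of the 32851 promoters of the RefSeq table. The Rnf111 promoter had 15 CpG dinucleotides and 1 GC box, a motif found in 32.7% of those promoters.

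H4R3me2a had more peaks at P14 than H4R3me1. The H4R3me1 lists held 29030 and 32003 peaks, and the H4R3me2a lists 39597, 44836 and 40386. The lists of the marks did not overlap in number, with a mean of 30516.5 ± 2102 (SD, n = 2) against 41606 ± 2825 (SD, n = 3) and an exact permutation p of 0.1. In WT mice at P7, when the germ cells are mainly spermatogonia, the order was the other way round: 22031 and 24193 peaks of H4R3me1 against 16995, 18722 and 17388 of H4R3me2a, again with an exact permutation p of 0.1. The number of reads behind each list is not stated in any source used here, and its part in these numbers was not tested. Peaks of the 2 marks at P14 were alike in width, with a mean of the list medians of 277.5 bp and 277.7 bp. Their median fold enrichment over the local background, a ratio within each list, was 3.29 ± 0.00122 (SD, n = 2) for H4R3me1 and 3.12 ± 0.0302 (SD, n = 3) for H4R3me2a. With q at most 0.01, which kept 22.5% ± 0.745 (SD, n = 2) of the H4R3me1 and 19.8% ± 2.41 (SD, n = 3) of the H4R3me2a peaks, the lists of the marks overlapped in number: 6349 and 7341 peaks against 6732, 9587 and 8451.

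Both marks were concentrated at promoters, taken as 3000 bp on either side of any annotated transcription start site (TSS). Promoters cover 15.1% of the genome and held 41.9% and 40.9% of the H4R3me1 peaks against 36.5%, 37.7% and 39.1% of the H4R3me2a peaks. The H4R3me1 share was higher by 3.68 percentage points, with no overlap of the lists and an exact permutation p of 0.1. Introns held 28.3% and 28.8% of the H4R3me1 peaks against 32.5%, 31.7% and 30.6% of the H4R3me2a peaks, where the genome share is 32.4% (exact permutation p = 0.1). Both differences moved with the length of the lists. When every list was reduced to its 28905 peaks of lowest p, promoters held 41.9% and 42.1% of the H4R3me1 peaks against 39.6%, 43.8% and 42.7% of the H4R3me2a peaks, a difference of means of 0.0167 points (exact permutation p = 1). At that length the mean intron share was 28.2% and 29.1% and the exact permutation p was 0.6. Distal intergenic DNA, 50.3% of the genome, held 27.1% ± 0.312 (SD, n = 2) of the H4R3me1 and 27.5% ± 0.417 (SD, n = 3) of the H4R3me2a peaks, a difference within the spread of the lists (exact permutation p = 0.4).

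**Figure D1:**
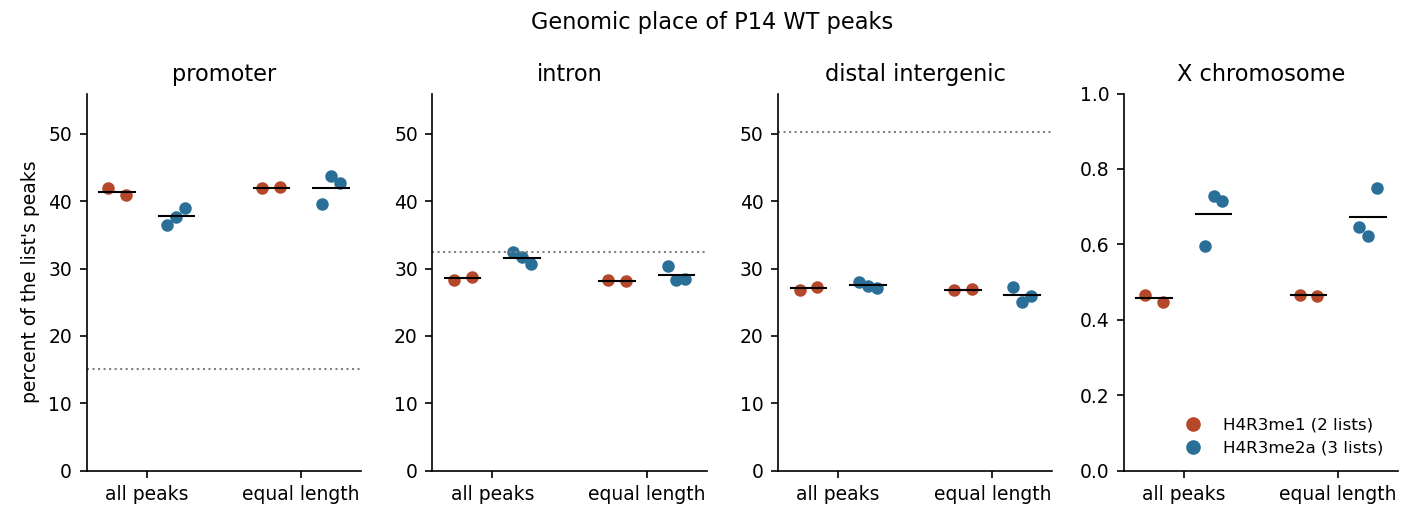
Percent of the peaks of each P14 WT list (points) in promoters, introns, distal intergenic DNA and on the X chromosome, for all peaks and for lists of equal length. Black bars are means and dotted lines the share of the genome (for the X chromosome, 6.28%, above the axis); at equal length the promoter difference falls to 0.0167 points and the intron difference shrinks, while the H4R3me1 lists stay below the H4R3me2a lists on the X chromosome.

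Within promoters, the peaks of both marks lay close to the TSS. Of the promoter peaks, 63.1% ± 0.0848 (SD, n = 2) of H4R3me1 and 60.8% ± 1.77 (SD, n = 3) of H4R3me2a had their summit within 500 bp of a TSS. Summits upstream of the TSS made up 40.5% ± 0.00518 (SD, n = 2) for H4R3me1 and 38.5% ± 0.455 (SD, n = 3) for H4R3me2a. These lists did not overlap (exact permutation p = 0.1), and at equal list length this share was not computed.

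Peaks of one mark were found in the lists of the other nearly as often as in lists of their own. The overlap of a pair of lists was taken as the mean of the shares of each list that the other touched by at least 1 bp. It was 30.2% for the pair of H4R3me1 lists, 29.4% on average for the 3 pairs of H4R3me2a lists (28.7% to 30.5%), and 28.6% for the 6 pairs across the marks (27.3% to 29.5%). The excess within a mark was 0.997 percentage points, and no other of the 10 assignments of the lists gave a larger one (one-sided exact permutation p = 0.1, the smallest possible). The excess was 1.52 points at equal list length. For comparison, the overlap with the lists of asymmetrically dimethylated H3R2 (H3R2me2a) at P14 was 32.4% for H4R3me1 and 32.9% for H4R3me2a, with those of H3K4me3 30.6% and 31.3%, with those of H3R8me2a (asymmetrically dimethylated H3R8) 27.8% and 28.5%, with those of H3K27ac 26.9% and 26.4%, and with those of H4R3me2s 23.1% and 23.5%. The peak names in the H4R3me2s lists labelled P14 carry a different prefix from those of the other P14 lists, so that their age rests on the labels alone. Both H4R3 marks overlapped H3R2me2a and H3K4me3 more than they did each other, with no test of that difference. At P7 the overlap was 19.0% within H4R3me1, 17.5% within H4R3me2a and 17.6% across them.

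Peaks of the best rank were found again far more often than those of the lowest rank. Peaks of equal p share a rank, so the deciles differ in size, with 2223 to 6787 peaks in 1 H4R3me2a list. Of the H4R3me1 peaks in the decile of a list with the lowest p, 78.0% were found in the other H4R3me1 list and 79.7% in a H4R3me2a list. In the decile with the highest p these shares were 12.9% and 14.7%. Of the H4R3me2a peaks in the top decile, 78.0% were found in another H4R3me2a list and 71.5% in a H4R3me1 list, and in the bottom decile 12.3% and 8.84%. The H4R3me2a lists were found more often from both sides, and they also hold more peaks.

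**Figure D2:**
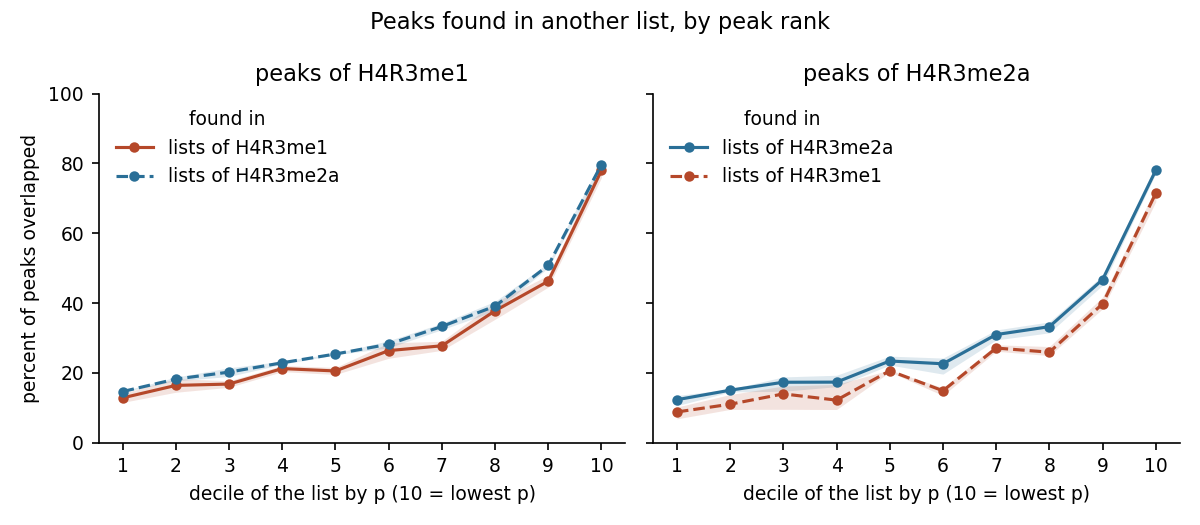
Percent of the peaks of a P14 WT list found in another list, by decile of the list when its peaks are ordered by p, for lists of the same mark (solid) and of the other mark (dashed). Lines are means over pairs of lists and shading the range; for both marks the share rises from under 15% in the lowest decile to over 71% in the highest.

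Merging the peaks of the 5 lists gave 121500 regions, of which 89706 (73.8%) belonged to 1 list. All 5 lists met in 4513 regions (3.71%). Regions in both H4R3me1 lists and in no H4R3me2a list numbered 1180 (0.971%), and regions in all 3 H4R3me2a lists and in no H4R3me1 list 1273 (1.05%). At equal list length 1431 regions were separate to H4R3me1 and 677 to H4R3me2a, so that the order of these numbers turned with the length of the lists. The separate regions can be read beside the pairs of lists that cross the marks. Over all peaks the number of regions held by 1 given H4R3me1 and 1 given H4R3me2a list alone ranged from 1139 to 1672, which covers the 1180 of the pair of H4R3me1 lists. Regions held by a given pair of H4R3me2a lists alone numbered 2012 to 2555. At equal length, a comparison added after these values were seen, the pair of H4R3me1 lists alone held 1431 regions, the pairs of H4R3me2a lists 1231 to 1408 and the pairs across the marks 1025 to 1244. Lists were also left out in turn and looked up. A H4R3me1 peak missing from 2 H4R3me2a lists was found in the other H4R3me1 list in 10.4% of cases (9.42% to 11.5%) and in the third H4R3me2a list in 11.7% (10.5% to 12.9%). A region of 2 H4R3me2a lists missing from 1 H4R3me1 list was found in the third H4R3me2a list in 44.0% (40.8% to 47.8%) and in the other H4R3me1 list in 32.0% (30.0% to 33.6%). The H4R3me2a lists are longer, and at equal length the shares were 11.6% (11.3% to 11.9%) against 9.86% (8.93% to 10.8%) in the first case, and 44.1% (41.1% to 46.3%) against 37.9% (37.2% to 39.2%) in the second. With lists of equal length, a further list of the same mark thus returned more of such regions than one of the other mark, for both marks, and the ranges did not overlap. These cases share lists and carry no test.

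Shared and separate regions differed in place, strength and DNA. Of the regions of all 5 lists, 69.1% (3118) lay in promoters, against 48.4% (616) of those separate to H4R3me2a, 35.6% (420) of those separate to H4R3me1 and 26.0% of the regions of 1 list. Shared regions also held the strong peaks: the median rank of their peaks was at a percentile between 85.5 and 90.9 in each list, against 57.9 to 62.2 for regions separate to H4R3me2a and 44.8 and 44.1 for those separate to H4R3me1. GC content in the 300 bp at the summit was 59.9% ± 10.1 (SD over 4505 windows) in shared regions, 56.4% ± 9.34 (1273 windows) in H4R3me2a regions and 52.6% ± 6.65 (1180 windows) in H4R3me1 regions. CpG-rich windows, with at least 0.6 of the CpG number that the base content would give, made up 57.2%, 28.8% and 10.3%. A GC box stood in 40.5%, 22.7% and 12.3% of all windows of these classes, against 38.9% of windows at the start sites of protein-coding genes and 2.81% of windows sampled along the genome. CCAAT, on either strand, stood in 19.6%, 20.8% and 28.1%, against 32.7% at those start sites and 40.8% along the genome. Among promoter regions alone, the median ratio of observed to expected CpG was 0.793 in shared, 0.639 in H4R3me2a and 0.333 in H4R3me1 regions. These classes require presence in different numbers of lists, so that the strength and DNA of their members are descriptions without a test.

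The other marks read at P14 followed the same order. A peak of H3R2me2a stood in 95% of the shared regions, in 63.7% of those separate to H4R3me2a and in 34.3% of those separate to H4R3me1, as the mean of 2 lists. For H3K4me3 the shares were 80.3%, 39.0% and 17.8%, and for H3K27ac 82.3%, 42.3% and 24.6%. H3R8me2a stood in 86.8%, 40.3% and 16.2%, and H4R3me2s in 71.9%, 24.8% and 10.8%. Outside promoters, H3K4me3 touched 10.5% of the H4R3me2a and 3.82% of the H4R3me1 regions, and H3R2me2a 53.7% and 29.1%. At regions of 1 list, H3R2me2a stood in 13.4%, H3K27ac in 8.78%, H3K4me3 in 6.93%, H3R8me2a in 6.06% and H4R3me2s in 3.76%. The width of the regions fell in the same order. Its median was 866 bp in shared regions, 583 bp and 414.5 bp in those separate to H4R3me2a and H4R3me1, and 244 bp in those of 1 list. A wider region is more easily touched by 1 bp, and the part of width in these shares was not tested.

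**Figure D3:**
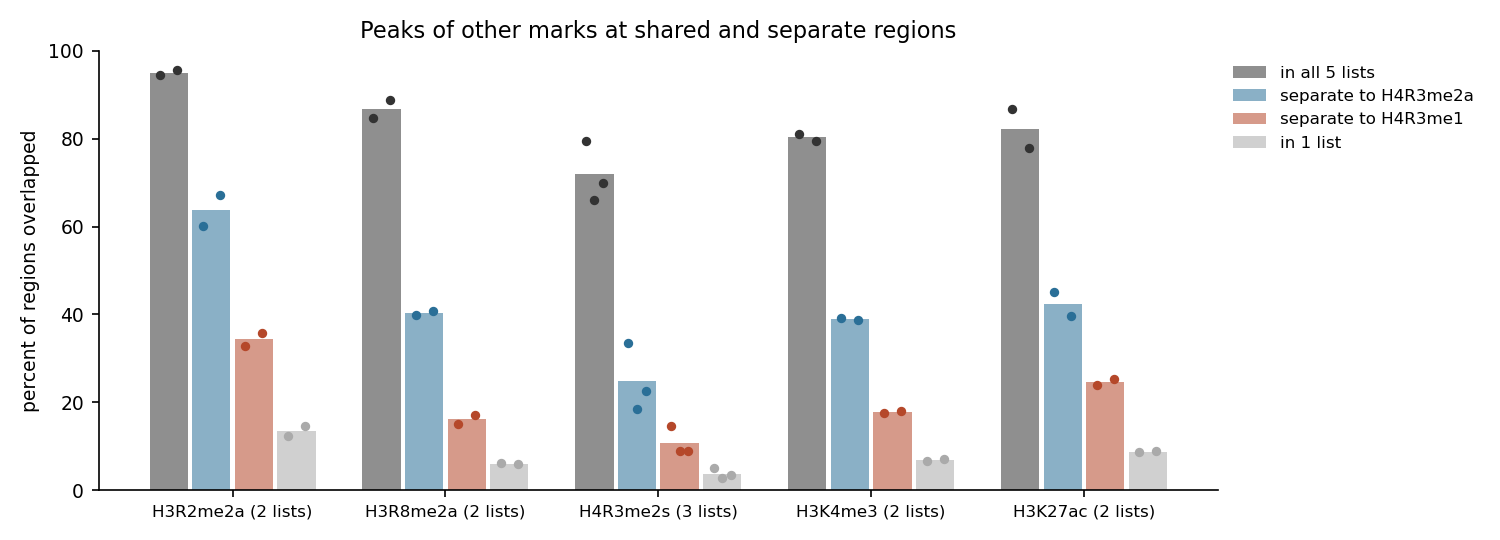
Percent of the regions of each class overlapped by a peak of 5 other marks at P14. Bars are means and points single lists. For each mark, regions of all 5 lists are overlapped most, then those separate to H4R3me2a, those separate to H4R3me1 and those of 1 list. The median widths of these classes fall in the same order.

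The lists at P7 gave a view of the separate regions that the classes did not use. At the regions separate to H4R3me1 at P14, P7 lists of H4R3me1 had a peak in 13.3% ± 1.38 (SD, n = 2) and P7 lists of H4R3me2a in 7.91% ± 0.783 (SD, n = 3). The lists did not overlap (exact permutation p = 0.1), and at equal length of the P7 lists the shares were 10.2% and 7.68% (exact permutation p = 0.2). At that length they were 8.69% and 8.73% for such regions in promoters, and 11.1% and 7.11% for those outside (exact permutation p = 0.1). At the regions separate to H4R3me2a the shares were 21.4% and 17.8%, higher for H4R3me1, and 17.4% and 17.5% at equal length (exact permutation p = 1). At the shared regions they were 56.3% and 49.7%. A preference for the same mark at both ages was therefore not seen for the H4R3me2a regions, nor at equal length for the H4R3me1 regions in promoters.

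The strongest peaks of both marks lay at the same places. A fold enrichment of at least 10 was reached by 61 to 71 peaks in each of the 5 lists, and 48 regions reached it in all of them. Of these 48 regions, 8 lay in promoters, and each of the 48 held a peak in all of the 16 other WT lists read, those of the other marks at P14 and of both marks at P7. In the 42 of their windows with a known base throughout, 59.6% of the bases were annotated as repeats, against 36.3% in windows along the genome, and 11.9% of these windows had no such base. The part of such repeats in the enrichment was not tested.

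Where all 5 lists had a peak, the relative strength of the 2 marks was close to equal. Fold enrichments were set to a common distribution over the 4513 regions and compared with limma, with Benjamini-Hochberg adjustment. Regions missing from any list did not enter, and the common distribution removes a difference in level shared by all regions. Both steps limit the differences that this comparison can show. No region was called higher in H4R3me1 (0%) or in H4R3me2a (0%) at an FDR of 0.05, and 250 (5.54%) had an unadjusted p below 0.05. The median absolute difference was 0.141 on the log2 scale, and 95% of the regions differed by less than 0.42. The 95% interval of the difference reached 0.40 to either side in the median region and lay within 1 log2 unit of 0 in 99.4% of the regions. In data simulated on the spread of these 4513 regions, with 200 changed, the fit recovered 0% of differences of 0.5, 51% of those of 1 and 89% of those of 2 log2 units. The correlation of log2 fold enrichment across regions, which are not independent replicates, was 0.705 on average for the 4 pairs of lists of the same mark (0.690 to 0.724) and 0.692 for the 6 pairs across the marks (0.683 to 0.702).

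**Figure D4:**
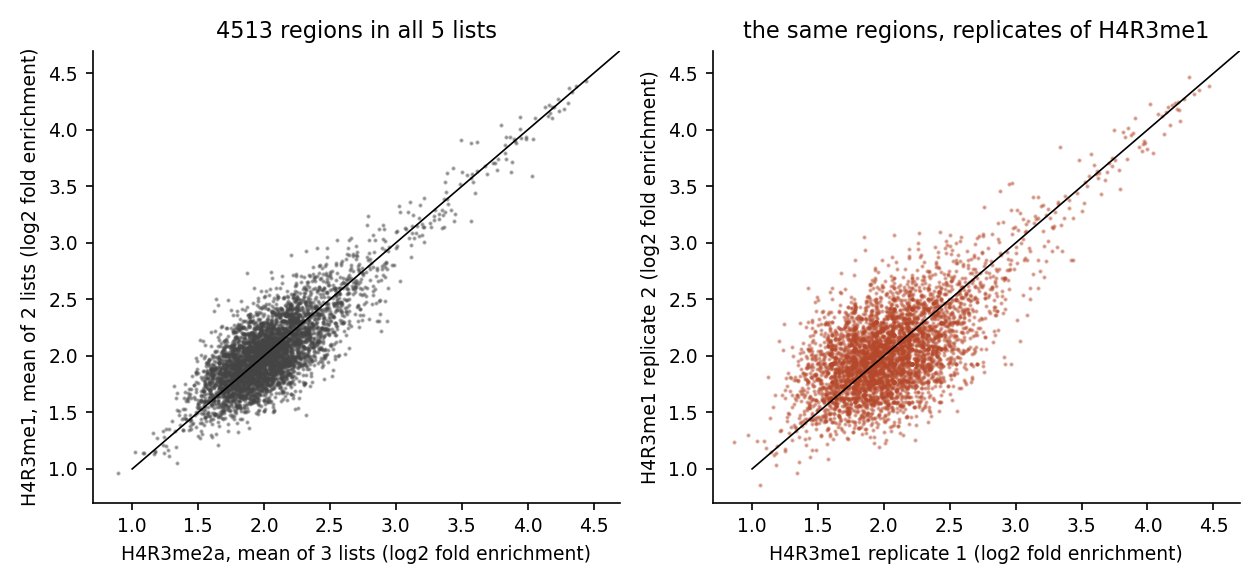
Log2 fold enrichment in the 4513 regions of all 5 lists, for the mean of H4R3me1 against the mean of H4R3me2a (left) and for the 2 replicates of H4R3me1 (right), with the line of equality. Each point is a region, and the points lie on both sides of the line in both panels. Averages over lists scatter less than single lists, so the widths of the panels are not comparable.

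The regions with the lowest p give the size of the differences that were not called. At the promoter of Zfp90, a zinc finger gene, the fold enrichment was 5.40 and 5.90 for H4R3me1 and 3.09, 3.40 and 2.78 for H4R3me2a. The log2 difference there was 0.87 ± 0.18 (SE), with a limma adjusted p of 0.431. At the promoter of Dnm3, which encodes a dynamin, the values were 6.88 and 6.50 against 3.37, 4.19 and 3.45. At that of Mdm1 they were 4.89 and 6.12 against 3.09, 3.13 and 3.16. In the other direction, Polg2, the accessory subunit of the mitochondrial DNA polymerase, had 2.94 and 2.68 against 4.34, 6.25 and 4.75, and Arih1, a ubiquitin ligase, 2.76 and 3.11 against 5.06, 4.65 and 4.55. The groups did not overlap at any of these 5 promoters, which were chosen for their low p.

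Promoter peaks were then assigned to the 21938 protein-coding genes. A list of H4R3me1 marked 8973 and 9368 of them (40.9% and 42.7%) and a list of H4R3me2a 9839, 11198 and 10812 (44.8%, 51% and 49.3%; exact permutation p = 0.2). A gene was taken as marked where at least 2 lists of a mark had a promoter peak, which asks for 2 of 2 lists in H4R3me1 and for 2 of 3 in H4R3me2a. On these terms 5777 genes (26.3%) had both marks, 774 (3.53%) H4R3me1 without H4R3me2a, 4966 (22.6%) H4R3me2a without H4R3me1 and 10421 (47.5%) neither. A gene without a mark may still have a peak in 1 of its lists. This held for 587 of the 774, and among the 4966 for 1619 genes of 2 and 1503 genes of 3 H4R3me2a lists. Hence 88.2% of the 6551 H4R3me1 genes had H4R3me2a as well, and 53.8% of the 10743 H4R3me2a genes had H4R3me1 as well. Of the 6514 genes in all 3 H4R3me2a lists, 68.0% had H4R3me1. Under the stricter classes, 4430 genes (20.2%) were in all 5 lists, 187 (0.852%) in both H4R3me1 lists and no other, 581 (2.65%) in the 3 H4R3me2a lists and no other, and 6327 (28.8%) in none. The share of genes that a pair of lists had in common, of the genes in either, was 58.5% for lists of the same mark (55.6% to 62.5%, 4 pairs) and 55.1% for lists of different marks (52.8% to 56.7%, 6 pairs). H3K4me3 stood in both of its lists at 97.9% of the genes in all 5 lists, at 83.8% of those separate to H4R3me2a, at 63.1% of those separate to H4R3me1 and at 17.4% of those in none. The share over all protein-coding genes was 63.1%, the same as for those separate to H4R3me1.

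Genes with both marks were expressed at a higher level than the rest. RNA at P14 was not analysed here, and RNA-seq of whole testes of WT mice at P7 was used, which the labels describe as given tamoxifen for 3 days, in TPM (a level scaled for gene length and for the total of the library). The median over genes was 28.5 ± 1.48 TPM (SD, n = 3 libraries) for the genes in all 5 lists, 7.61 ± 0.720 for those separate to H4R3me2a and 5.64 ± 0.354 for those separate to H4R3me1. The median of the genes in none of the lists was 0 in each library. A mean of at least 1 TPM was reached by 94.1%, 71.8%, 69.4% and 22.8% of the genes of these 4 classes. By the rule of at least 2 lists the order of the marks was the other way round, with 14.1 ± 0.468 TPM (SD, n = 3) for H4R3me1 without H4R3me2a and 12.4 ± 0.390 for H4R3me2a without H4R3me1, and 26.6 ± 1.30 for both marks. In 2 libraries of isolated spermatogonia at P7 (Smart-seq2), labelled WT and described in the study's methods as from mice with 1 floxed Prmt1 allele and a Ddx4-driven Cre, the medians were 26.4 and 24.8 TPM for genes in all 5 lists, 3.32 and 3.01 for those separate to H4R3me2a, and 0.96 and 0.12 for those separate to H4R3me1. By the rule of at least 2 lists the mean of the medians there was 4.30 ± 0.601 TPM (SD, n = 2) for H4R3me1 without H4R3me2a and 5.55 ± 0.170 for H4R3me2a without H4R3me1, so that the order seen in bulk RNA did not hold.

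Most of the genes for the PRMTs themselves carried both marks. Prmt1, Prmt2, Prmt3, Carm1, Prmt7 and Prmt9, 6 of the 9 family members (66.7%), had a promoter peak in all 5 lists, against 20.2% of all protein-coding genes. At Prmt1, which encodes the main writer of H4R3me2a, the fold enrichment was 4.02 and 4.10 for H4R3me1 and 3.74, 4.15 and 2.93 for H4R3me2a. At Prmt7 it was 4.57 and 4.31 against 4.57, 3.75 and 3.70. Carm1, which methylates H3R17 and splicing proteins, had 5.09 and 4.27 against 4.20, 7.93 and 6.62, so that the lists of both marks overlapped at all 3 genes. The other 3 members missed one H4R3me1 list each. Prmt6, the writer of H3R2me2a, had 3.82 in 1 H4R3me1 list and 4.38, 2.99 and 4.15 in the H4R3me2a lists. Prmt8 had 3.81 in 1 H4R3me1 list and 3.05, 4.50 and 2.84 for H4R3me2a. Prmt5, the main writer of H4R3me2s, had 2.54 in 1 H4R3me1 list and 3.19 and 3.39 in 2 of the H4R3me2a lists. Of the 13 genes for Tudor domain proteins, which bind methylated arginine, 6 had both marks, 4 H4R3me2a without H4R3me1 and 3 neither. Snd1, Akap1, Tdrd3, Tdrd7 and Tdrkh were in all 5 lists. Of 37 splicing factor genes, 24 (64.9%) had both marks and 10 H4R3me2a without H4R3me1, and none had H4R3me1 without H4R3me2a, where all protein-coding genes gave 26.3%, 22.6% and 3.53%. All 37, and the 9 PRMT genes, had H3K4me3 in both of its P14 lists. Of the 13846 protein-coding genes that did, 5552 had both marks and 4111 H4R3me2a without H4R3me1.

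Among 28 spermatogonial genes, 5 had both marks, 2 H4R3me1 without H4R3me2a, 12 H4R3me2a without H4R3me1 and 9 neither, which is 17.9%, 7.14%, 42.9% and 32.1%. By comparison, all protein-coding genes gave 26.3% with both marks, 3.53% with H4R3me1 without H4R3me2a, 22.6% with H4R3me2a without H4R3me1 and 47.5% with neither. Etv5, a transcription factor of stem cell self-renewal, was in all 5 lists with a fold enrichment of 4.26 and 3.68 for H4R3me1 and of 4.10, 4.88 and 2.96 for H4R3me2a. Id4, a marker of spermatogonial stem cells, had 2.78 and 2.98 against 2.99 and 3.45 in 2 H4R3me2a lists and no peak in the other. Bcl6b, a further self-renewal factor, had 3.89 in 1 H4R3me1 list and 3.32, 3.65 and 2.46 for H4R3me2a, and Sohlh2, a factor of differentiation, 4.43 in 1 H4R3me1 list and 2.62, 3.24 and 2.67. Zbtb16, which encodes PLZF, was on the other side, with 3.30 and 2.81 for H4R3me1 and 2.79 in 1 H4R3me2a list. Taf4b was in all 5 lists. Pou3f1 had 3.00 and 3.13 in 2 H4R3me2a lists, Lhx1 2.62 in 1 and Pou5f1 2.40 in 1, and none of these had a H4R3me1 peak. Kit and Stra8, markers of differentiating spermatogonia, were each in 1 H4R3me1 and 3 H4R3me2a lists, and Nanos2, Sall4 and Sohlh1 in none.

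Of 39 genes of meiotic prophase, 9 had both marks, 3 H4R3me1 without H4R3me2a, 16 H4R3me2a without H4R3me1 and 11 neither, while 38 had H3K4me3 in both of its lists, against 63.1% of all protein-coding genes. The first of these, 23.1%, is near the 26.3% of all protein-coding genes, and the third, 41.0%, stands beside 22.6%. Of the 13846 protein-coding genes with H3K4me3 in both lists, 5552 had both marks and 4111 H4R3me2a without H4R3me1. Sycp3, of the axes of meiotic chromosomes, Mlh3, which acts in crossovers, Prdm9, which places the double-strand breaks, and Trip13, Meiob, Mnd1 and Terb1 were among those in all 5 lists. Sycp1, Syce1 and Hfm1 were in the 3 H4R3me2a lists alone, and Spo11 and Dmc1, for the break-forming enzyme and a strand exchange protein, in 2 H4R3me2a lists. Msh5 and Majin were in both H4R3me1 lists alone. Of 35 genes of pachytene spermatocytes and spermatids, 7 had both marks, 5 H4R3me2a without H4R3me1 and 23 (65.7%, against 47.5% of all genes) neither. Tssk3, Tssk6, Zpbp, Zpbp2, Odf2, Catsper2 and Hspa2 made up the first 7, and Prm1, Prm2, Tnp1, Acr, Ldhc and Pgk2 were in none. Of 19 genes of the piRNA pathway, which silences transposons in germ cells, 3 (15.8%) had both marks (Piwil2, Tdrkh and Exd1), 8 (42.1%) had H4R3me2a without H4R3me1, among them Henmt1 in all 3 lists, and 6 neither. Piwil4 and Spocd1 had H4R3me1 without H4R3me2a, each with a peak in 1 H4R3me2a list.

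Gene families of other kinds showed the range. Both marks stood at 40 of 90 genes of oxidative phosphorylation, 29 of 82 ribosomal protein genes, 22 of 67 replication-dependent histone genes, 107 of 394 zinc finger (Zfp) genes and 7 of 39 Hox genes, which is 44.4%, 35.4%, 32.8%, 27.2% and 17.9% beside 26.3% of all protein-coding genes. In the same order 30, 21, 27, 121 and 14 genes (33.3%, 25.6%, 40.3%, 30.7% and 35.9%) had H4R3me2a without H4R3me1, beside 22.6% of all genes. H4R3me1 without H4R3me2a stood at 6, 6, 2, 12 and 3 (6.67%, 7.32%, 2.99%, 3.05% and 7.69%), beside 3.53%. Receptor genes of olfactory neurons, which testis cells largely do not use, had both marks at 5 of 1135 and neither at 1107, and vomeronasal receptor genes had both at 2 of 331. Markers of the somatic cells of the testis can be read against the same shares of all genes. Of 14 Sertoli cell genes 3 (21.4%) had both marks, 4 (28.6%) H4R3me2a without H4R3me1 and 7 (50%, beside 47.5% of all genes) neither. Gata4 was in all 5 lists, Amh and Wt1 in 2 of each mark and Sox9 in the 3 H4R3me2a lists alone. Clu, Inha, Inhbb and Rhox8 were each in 1 H4R3me1 list and no H4R3me2a list, Tjp1 in 1 H4R3me2a list, and Dhh and Rhox5 in none. Of 7 endothelial genes 2, Cdh5 and Kdr, had both marks and 3 (42.9%) H4R3me2a without H4R3me1. No Leydig (9), peritubular (7) or macrophage (10) gene had both marks, and 3, 2 and 2 of them (33.3%, 28.6% and 20%) had H4R3me2a without H4R3me1. Cyp11a1 and Hsd17b3 of Leydig cells were each in 2 H4R3me2a lists and no H4R3me1 list, and Lhcgr was in 2 H4R3me2a lists and 1 H4R3me1 list. Cd14 of macrophages was in 3 H4R3me2a lists alone and Csf1r in 1. Star and Insl3 of Leydig cells and Cd68 of macrophages were each in 1 H4R3me1 list and no H4R3me2a list. Cyp17a1, Hsd3b1 and Adgre1 were in none of the 5 lists. The part of somatic cells in these lists was not tested.

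The named genes of the 3 strict classes were those with the best mean rank. Predicted genes beside satellite repeats (Gm10800, Gm21738, Gm10722, Gm11168 and Gm10715) led the genes in all 5 lists, together with Zc3h7a (12.5 and 12.7 against 13.9, 11.9 and 14.3), Asmt and Aida. Below 10-fold, a limit set after these values were seen, came Plcb4, a phospholipase C (9.14 and 9.14 against 9.18, 9.96 and 9.81), Phf21a, a reader of unmethylated H3K4 (8.66 and 7.32 against 8.30, 8.37 and 7.27), and Ensa, an inhibitor of the mitotic phosphatase PP2A (7.51 and 7.45 against 5.70, 6.41 and 6.77). The H4R3me1 values at Ensa were above all those of H4R3me2a, and at Plcb4 they were below. Among those in both H4R3me1 lists and no other were Lrrc61 (4.17 and 4.60), Fadd, an adaptor of death receptors (4.55 and 3.72), Mrpl12, a mitochondrial ribosomal protein (3.81 and 4.06), Wdr46 (4.37 and 4.01), Bloc1s3 (3.68 and 4.12), Grpel1 (3.83 and 3.42) and Gm49322. In the 3 H4R3me2a lists and no other were Stau2, an RNA-binding protein (5.58, 4.89 and 4.96), Fbxo22 (5.03, 5.32 and 7.60), Rnf111, a ubiquitin ligase of TGF-beta signalling (5.39, 4.98 and 4.83), Kif2b, a mitotic kinesin (5.0, 4.38 and 5.65), Skil, a repressor of SMAD proteins (4.60, 4.35 and 5.15), Prpf39, a splicing factor (5.39, 4.32 and 6.91), Cthrc1 (4.73, 4.43 and 5.18) and Grpel2.

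The X chromosome separated the marks. In mid-prophase of male meiosis the X and Y chromosomes are silenced in the sex body, and X-linked genes of spermatogonia are not. The X chromosome makes up 6.28% of the genome and held 135 and 143 peaks of H4R3me1, which is 0.467% and 0.448% of the lists, against 235, 325 and 288 peaks of H4R3me2a, which is 0.596%, 0.727% and 0.716%. The H4R3me1 lists were lower by 0.222 percentage points on average, with no overlap of the lists (exact permutation p = 0.1). The order held at equal list length, with 135 and 134 against 187, 180 and 217 peaks (exact permutation p = 0.1). It was not seen among peaks of q at most 0.01, where the difference fell to -0.0213 points (exact permutation p = 0.8). At P7 the share was 0.617% ± 0.129 (SD, n = 2) for H4R3me1 and 0.629% ± 0.0344 (SD, n = 3) for H4R3me2a. In the H3K4me3 lists at P14 it was 3.42% and 3.41%, and in the H3K27ac lists 1.95% and 2.11%.

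Promoters showed the same on the gene level. Of 948 X-linked protein-coding genes, 39 and 59 (4.11% and 6.22%) had a promoter peak in the H4R3me1 lists and 98, 150 and 129 (10.3%, 15.8% and 13.6%) in the H4R3me2a lists (exact permutation p = 0.1). On the autosomes the shares were 42.9% and 44.7% against 46.8%, 53.1% and 51.3% (exact permutation p = 0.2), and no autosome lay below 35.1% in any list. X-linked genes with H3K4me3 in both of its lists numbered 504, and 13323 autosomal genes had it too. In this comparison, which was added after the data were seen, H4R3me1 stood at 37 and 54 of the X-linked promoters (7.34% and 10.7%) and H4R3me2a at 89, 136 and 124 (17.7%, 27% and 24.6%), while the autosomal shares were 60.3% and 62.2% against 63.8%, 72.9% and 70.8%. At equal list length the X-linked counts were 37 and 53 against 73, 81 and 96, with a mean of 8.93% ± 2.24 (SD, n = 2) against 16.5% ± 2.32 (SD, n = 3) (exact permutation p = 0.1), and the autosomal means were 60.3% and 61.5% (exact permutation p = 0.7). At q of at most 0.01 the X-linked difference was -1.75 points (exact permutation p = 0.4). H3K27ac stood at 76.2% and 75.0% of these X-linked promoters, and the other arginine marks at fewer: H3R2me2a at 33.1% and 43.1%, H3R8me2a at 22.8% and 13.5%, and H4R3me2s at 21.6%, 7.34% and 10.3%. Both H4R3me1 lists lay within the range of the 3 H4R3me2s lists. The autosomal shares of those H4R3me2s lists were 61.1%, 47.5% and 50.9% in the same order. The 2 with the low shares were shorter, with 18264 and 22067 peaks.

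**Figure D5:**
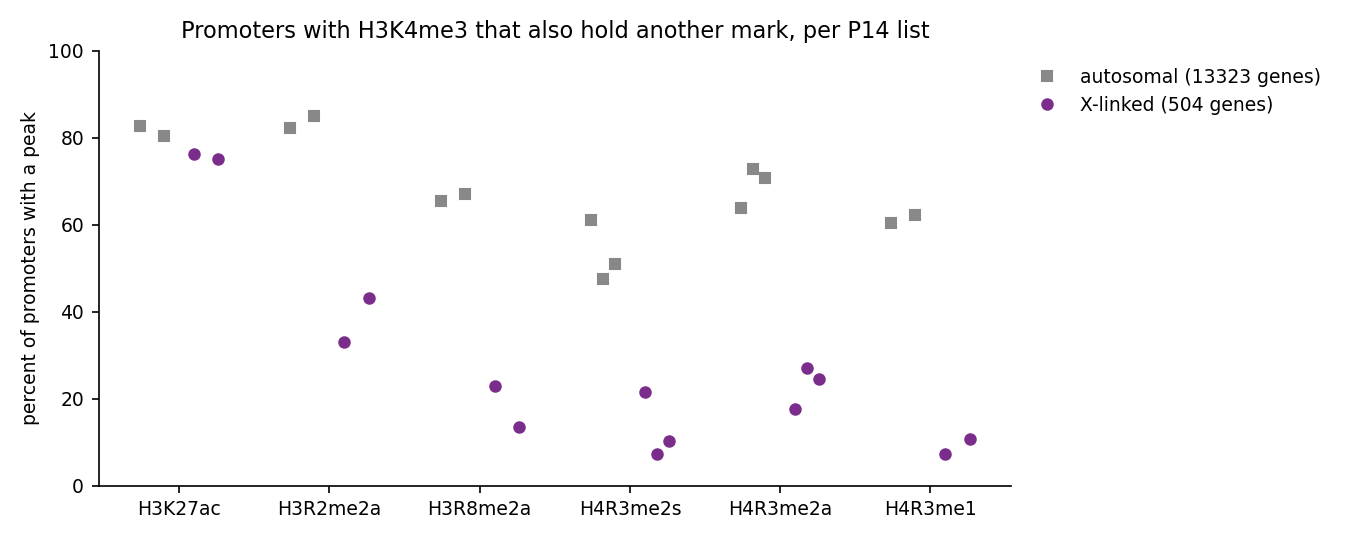
Percent of promoters with H3K4me3 in both of its P14 lists that also hold a peak of another mark, per P14 WT list, for 13323 autosomal (squares) and 504 X-linked genes (circles). X-linked promoters are lower for all 6 marks, least for H3K27ac, and the H4R3me1 lists lie at 7.34% and 10.7%, below the 3 H4R3me2a lists.

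By the rule of at least 2 lists, 12 X-linked genes had both marks, 4 H4R3me1 without H4R3me2a, 93 H4R3me2a without H4R3me1 and 839 neither, which is 1.27%, 0.422%, 9.81% and 88.5% of the 948. On the autosomes these shares were 27.7%, 3.70%, 23.4% and 45.2%. The 11 genes in all 5 lists included Asmt (14.8 and 14.9 against 12.9, 11.3 and 11.8) and Mid1 (2.98 and 4.22 against 3.95, 3.85 and 3.68) at the distal end of the chromosome, where X and Y share sequence, Kdm6a, a histone H3K27 demethylase (4.20 and 3.83 against 2.36, 4.98 and 3.45), Siah1b, a ubiquitin ligase (3.82 and 5.74 against 7.08, 3.99 and 4.49), and Yipf6 (4.58 and 4.35 against 3.71, 4.65 and 5.18). In the 3 H4R3me2a lists and no H4R3me1 list were 9 X-linked genes, among them Tex13b, expressed in germ cells (3.37, 4.32 and 4.76), Ikbkg, which encodes NEMO of the NF-kappaB pathway (3.37, 3.32 and 4.15), and Klf8, a zinc finger factor (3.71, 2.99 and 4.15). These 9 are 0.949% of the X-linked genes, against 2.73% on the autosomes. No X-linked gene was in both H4R3me1 lists and no H4R3me2a list, where the autosomal share was 0.899%. These X-linked genes were named after their values were seen.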

How the data were processed

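CUT&Tag peak lists of WT testis cells at P14 (2 of H4R3me1, 3 of H4R3me2a) were the members; they, the gene lists and the tests were chosen with earlier results of these data known. Reads were trimmed with fastp 0.23.2 and the authors called peaks with MACS2 2.1.0 separately for each sample on mm10; peak names carry a p threshold of 0.005. The aligner, the control and the number of reads of these libraries are not stated in any source used here. For each peak the authors deposited a fold enrichment (the ratio of its summit to the background around it), the −log10 p and the −log10 q. RNA levels were the TPM that the authors deposited, made with RSEM. Per the submitters' processing notes, HOMER, deepTools and DESeq2 were also used in the study.

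Peaks on contigs and the mitochondrial genome were left out. Peaks were placed by their summit on GENCODE vM21 (GRCm38), and a promoter reached 3000 bp to either side of a start site. Lists were merged where peaks shared at least 1 bp, and groups of lists were compared with exact two-sided permutation tests unless said otherwise. Relative strength was tested with limma 3.58.1 in R 4.3.3 on quantile-normalized log2 fold enrichment with no replicate block, and the fit was tested on simulated data. Of 21938 protein-coding genes, 21884 matched an RNA entry. Named genes were those the study displays for H4R3 marks, the PRMT family, and up to 8 protein-coding genes per strict class with the best mean rank; a set below 10-fold in all lists without predicted (Gm) genes was added after values were seen. Some genes that met these rules are not reported here. Sequences were to be the first region of each class outside exons; since these were repeats, the first without a repeat-annotated base was printed, also after values were seen. The Fadd window was the first such H4R3me1 region in a promoter; the shared region chosen that way, near Gm6216, was not printed. Of 50 named genes, 29 had an entry in the RefSeq promoter table (GRCm38.p6). Alternatives were equal list length, q at most 0.01, 50% overlap, a promoter of 1000 bp, peak midpoints, 1 list per marked gene, a replicate block, other normalizations, Smart-seq2 libraries, a minimum of 5 TPM, and each list left out in turn. Python 3.11.15, numpy 2.4.6, pandas 2.3.3, scipy 1.17.1, pysam 0.24.0 and matplotlib 3.10.9 were used.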

Additional observations from a re-analysis of the deposited data

Results flagged for a closer look

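The difference in the number of peaks between the marks had opposite signs at the 2 ages. H4R3me1 minus H4R3me2a was -11089.8 peaks per list at P14 and 5410.33 at P7, and in each case every H4R3me1 list lay on the same side of every H4R3me2a list. The share of peaks in introns did likewise, with a difference of -3.04 percentage points at P14 and 1.94 at P7. Whether the differences at the 2 ages differ from each other was not tested. Groups of 2 and 3 lists are too small to look for single lists that stand apart.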

How the results depend on the processing

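Of 121 alternative values for 17 results, 89 kept their direction and, for counts, stayed within 1.5 times the main count, 29 moved and 3 reversed. Among the 89 are differences that shrank: at equal length the promoter difference was 0.0167 points and the intron difference -0.853, and at q at most 0.01 the X chromosome difference was -0.0213 and that of X-linked promoters with H3K4me3 -1.75. The distal intergenic difference was 0.837 points at equal list length and 0.865 at q at most 0.01, and the P7 difference at regions separate to H4R3me2a was -0.105 at equal length. At q at most 0.01 the regions of all 5 lists numbered 1335, those separate to H4R3me1 236 and to H4R3me2a 281. Genes with both marks numbered 1733, with H4R3me1 without H4R3me2a 465 and with H4R3me2a without H4R3me1 2521. At equal length 677 regions were separate to H4R3me2a and 1431 to H4R3me1. With 50% overlap, 1155 regions were in all lists and 828 separate to H4R3me2a. With 1 list per mark, 10771 genes had both marks. Genes of all 5 lists at 1 TPM or more made up 88.5% in Smart-seq2, and 86.8% reached 5 TPM in bulk RNA. The causes were not tested. Leaving out each list in turn gave 1639 to 15604 regions separate to H4R3me1 and 2280 to 3822 separate to H4R3me2a. It gave 1462 to 1895 genes with H4R3me1 without H4R3me2a and 2809 to 3540 with H4R3me2a without H4R3me1. Without a H4R3me1 list, a gene needed a peak in the 1 list left, and limma took that list to vary like the others.

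The labels number the replicates, and nothing says that a number pairs lists. With the replicate block, over replicates 1 and 2, the differences were -11700 peaks, 4.33 points in promoters, -3.53 in introns, -0.627 in distal intergenic DNA and -0.204 on the X chromosome. In limma the block called 2 regions where the fit without it called 0, the promoters of Ttll5 (6.56 and 8.22 against 3.66, 3.59 and 7.34) and Mettl22 (4.89 and 6.54 against 2.73, 2.92 and 4.55), with an adjusted p of 0.0288; the cause was not tested. Limma called 0 regions in each other alternative. With 2 against 3 lists, and no read numbers, a weak peak missing from a list cannot be told from an absent mark.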
